A study of Mus musculus with 6 samples.

Results

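The regions described here had an ATAC-seq peak in both white and both brown adipocyte libraries and in neither beige library. ATAC-seq maps open chromatin by the DNA that a transposase can reach, and a peak is a stretch where the inserted ends pile up over the local background. The intervals of the 6 deposited peak lists were merged where they overlapped or touched, and the regions were chosen from the pattern of called peaks alone. This gave 472 of 194496 merged regions, or 0.243% of them. The mirror patterns were more frequent, with 2438 regions (1.25%) open in beige and brown but not white and 2257 (1.16%) open in beige and white but not brown. These counts follow from the rule and are given as a description.

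All libraries were made from wild type C57BL/6J mice, which were male and aged 3 to 4 weeks, and from primary cells differentiated in culture for 7 days. The beige and white cultures (2 libraries each) started from the stromal vascular fraction of inguinal fat, and the brown cultures (2 libraries) from that of brown adipose tissue. Beige and brown cultures were induced with 5 μM dexamethasone, 0.5 mM isobutyl methylxanthine, 1 nM T3, 1 μM rosiglitazone and 5 μg/ml insulin, as the deposited labels give it. White cultures received 1 μM dexamethasone, 0.5 mM isobutyl methylxanthine and 5 μg/ml insulin, without T3 or rosiglitazone. The study's methods give lower insulin doses than the labels, and one for white that is above that for beige. White and brown thus shared neither the depot nor the whole medium, while beige shared its depot with white and its medium with brown. The cultures hold whatever cells of the fraction survived or did not differentiate, and the labels name no sort. The study states 2 biological replicates per group for its beige and white libraries, but no label ties a library to particular mice. For the brown libraries the spread between replicates may be technical.

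White adipocytes store lipid in a single large droplet, brown adipocytes burn it through the mitochondrial uncoupler Ucp1, and beige adipocytes arise in white depots and can take up that program. Most open sites that differ between related cell types are enhancers, stretches away from promoters where transcription factors bind. AP-1, a dimer of Fos and Jun proteins, and the C/EBP family are bound at many enhancers of adipocytes and their precursors, and CTCF marks insulators and loop anchors that many cell types share. The labels were checked by peaks within 1 kb of start sites. Pparg, Cebpa, Adipoq, Fabp4 and Plin1, which define adipocytes, had such a peak in every library. Ucp1 had one in brown replicates 1 and 2 but in no beige or white library. The other depot genes did not separate the cultures as labelled. Zic1 and Lhx8, known from brown fat, and Hoxc10, known from inguinal fat, had a peak in all 6 libraries, and Tcf21, known from white fat, had one in both brown libraries and in white replicate 1. Of 12 macrophage markers 3 to 4 had a peak near their start in each library, and of 12 endothelial markers 6 to 8 did. The counts were 18 to 20 of 20 adipose progenitor, 7 to 10 of 12 smooth muscle and 6 to 7 of 12 skeletal muscle markers. Such peaks do not show which cells were present.

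Sequences around the summit are given as examples, picked for an AP-1 match, and do not stand for all of the regions. The windows printed here take in 100 bp to each side of the strongest summit, on the plus strand of mm10 from RefSeq's copy of the build. They belong to the most strongly called of the regions that held an AP-1 match (TGANTCA), and each is named by its nearest protein-coding gene. Capitals mark matches to AP-1, to RUNX (TGTGGTT) and to TEAD (GGAATGT), read on either strand.
Rps29, chr12:68877322-68877522: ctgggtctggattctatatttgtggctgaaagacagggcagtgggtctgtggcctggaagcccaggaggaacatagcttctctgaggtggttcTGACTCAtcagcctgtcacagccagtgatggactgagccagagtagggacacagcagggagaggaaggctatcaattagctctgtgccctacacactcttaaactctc
Oxgr1, chr14:120144653-120144853: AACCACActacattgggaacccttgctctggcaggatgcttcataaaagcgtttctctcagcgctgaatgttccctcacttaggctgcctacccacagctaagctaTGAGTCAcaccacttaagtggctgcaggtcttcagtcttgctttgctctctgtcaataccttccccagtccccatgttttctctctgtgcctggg
Catsperb, chr12:101268236-101268436: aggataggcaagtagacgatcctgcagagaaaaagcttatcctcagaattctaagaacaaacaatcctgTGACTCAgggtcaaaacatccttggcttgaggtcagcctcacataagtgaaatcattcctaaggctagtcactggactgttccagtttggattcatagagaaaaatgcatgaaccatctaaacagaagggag
Gmds, chr13:32298548-32298748: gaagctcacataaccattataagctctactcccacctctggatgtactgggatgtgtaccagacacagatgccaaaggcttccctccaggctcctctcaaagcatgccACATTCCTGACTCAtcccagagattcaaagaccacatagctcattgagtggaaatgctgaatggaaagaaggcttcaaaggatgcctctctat
The Rps29, Oxgr1 and Catsperb windows lay in intergenic DNA, 281764, 102318 and 136337 bp from those genes' start sites, and the Gmds window lay in an intron of Gmds. In the Gmds window the TEAD and AP-1 matches abut with no base between them.

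A second pair of windows, of the regions ranked 2 and 3 by strength, shows sequence that the genome holds more than once. Capitals mark a RUNX match in the first and an E-box (CAGCTG) in the second.
Gm10800, chr2:98665031-98665231: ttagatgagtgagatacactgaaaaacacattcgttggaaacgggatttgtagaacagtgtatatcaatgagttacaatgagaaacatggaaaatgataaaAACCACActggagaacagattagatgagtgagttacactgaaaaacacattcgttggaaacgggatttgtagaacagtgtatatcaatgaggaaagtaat
Duxf3, chr10:58231805-58232005: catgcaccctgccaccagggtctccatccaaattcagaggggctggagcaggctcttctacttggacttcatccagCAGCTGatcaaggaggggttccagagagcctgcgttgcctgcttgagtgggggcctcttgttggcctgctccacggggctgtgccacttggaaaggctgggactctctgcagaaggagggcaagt
In the Gm10800 window, 64.3% of the 31-base words occur more than once in the assembled chromosomes, at a median of 4 copies. Copies that the assembled chromosomes leave out were not counted, so the true number may be higher. In the Duxf3 window 53.2% of the words occur more than once, and in the Catsperb window above 33.9% do. Duxf3 belongs to the double homeobox family, which lies in repeated arrays.

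The peaks were weak in every list that defined them. Peak strength is given as the deposited −log10 q, for which the calling threshold of q = 0.05 is 1.30. In white replicate 1 the 472 regions ran from 1.34 to 51.5 with a median of 6.24, and in white replicate 2 from 1.33 to 29.7 with a median of 5.20. In brown replicate 1 they ran from 1.44 to 27.3 with a median of 6.26, and in brown replicate 2 from 1.37 to 32.7 with a median of 5.35. The median region stood at percentile 34.8, 26.1, 26.6 and 30.3 of its list, in the same order. The median fold enrichment over the local background was 3.72, 3.44, 4.01 and 3.64. The highest of the 4 values fell in white replicates 1 and 2 for 153 and 73 regions and in brown replicates 1 and 2 for 157 and 89. These values chose the members and are relative to each library alone.

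**Figure D1:**
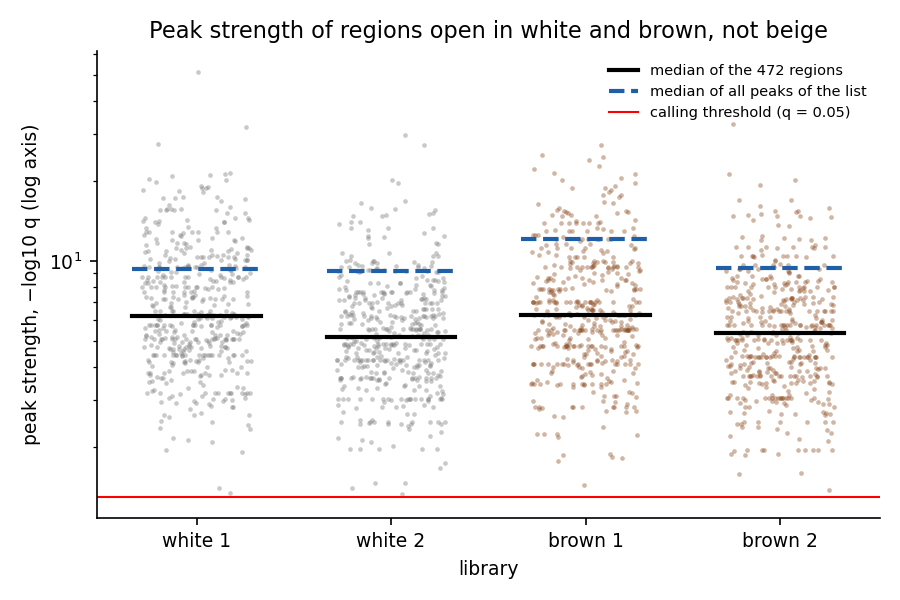
Peak strength (−log10 q, log axis) of the 472 regions in each white and brown library; each point is a region, the solid line their median, the dashed line the median of all peaks of that list and the red line the calling threshold. In each of the 4 libraries the median of the regions (5.20 to 6.26) sits below the median of the whole list (9.18 to 12.1).

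The weakest of the 4 values decides whether a region is a member. It had a median of 3.62, was under 2 in 36 regions, over 5 in 86 and over 10 in 3. The members just inside the threshold lay nearest to Fyn (1.33 in white replicate 2), Mylip (1.34 in white replicate 1) and Fam163a (1.37 in brown replicate 2). Regions just outside had 1 weak beige peak and lay nearest to Anxa2 (1.34), Memo1 (1.43) and Chic2 (1.502). Absence of a called beige peak is not absence of signal, and the lists hold no read counts from which a beige level could be read.

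Most white and brown sites were shared with beige. Of 61091 regions with a peak in all 4 white and brown libraries, 58714 had one in both beige libraries, 615 in beige replicate 1 only, 1290 in beige replicate 2 only and 472 in neither. The last group made up 0.773% (95% Clopper-Pearson interval 0.705 to 0.845) of them. For the mirror patterns the same share was 3.61% of 67545 for white peaks missing and 3.39% of 66666 for brown peaks missing. The list of beige replicate 2 was the longest, with 127490 peaks. That of beige replicate 1 held 118812, fewer than both white lists (120473 and 119385) and more than both brown ones (113861 and 109143). With all lists cut to the length of the shortest the white and brown regions numbered 634, against 2316 for beige and brown and 1698 for beige and white, so they stayed the smallest class. That cut also dropped weaker beige peaks, so regions with a called beige peak could enter. The study's reporting summary lists fewer mapped reads for both beige than for both white libraries and none for brown, and the part of read depth was not tested. The 1905 regions with a peak in exactly 1 beige library had a median beige −log10 q of 6.75, and 10 of them were under 2. A further 1851 regions had no beige peak and a peak in 3 of the 4 white and brown libraries. The missing list was brown replicate 2 in 627, white replicate 2 in 549, brown replicate 1 in 376 and white replicate 1 in 299.

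Some regions had a beige peak close by. The median gap from a region to the closest beige peak was 4093 bp (interval 3448 to 4995). One lay within 100 bp of 30 regions (6.36%, interval 4.33 to 8.95), within 1000 bp of 112 (23.7%) and within 10000 bp of 335 (71.0%). The median gap to the missing culture was 3209.5 bp in the beige and brown and 3254 bp in the beige and white pattern. Their shares were 5.58% and 10.8% within 100 bp, 25.8% and 31.6% within 1000 bp, and 82.0% and 77.9% within 10000 bp. Within 1000 and 10000 bp the white and brown regions thus had the lowest shares. The region at the Hoxd4 promoter lay 38 bp from a beige peak and that at the Duxf3 promoter 45 bp. Such regions adjoin a stretch that was called in beige.

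The regions lay mostly away from promoters. A promoter position, with the summit within 1 kb of a protein-coding start site, was found for 32 regions (6.78%, interval 4.68 to 9.44), against 24.3% of the regions open in all 6 libraries and 11.6% of all merged regions. An intergenic position was found for 252 (53.4%, interval 48.8 to 58.0), against 38.9% and 45.4%. Introns held 174 (36.9%), coding exons 9 and other exons 5. The median distance to a start site was 36174 bp (interval 31557 to 44792), and 142 regions (30.1%, interval 25.98 to 34.4) lay over 100 kb away, against 22.9% of all merged regions.

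Both mirror patterns were likewise poor in promoters, with 5.41% (interval 4.55 to 6.39) and 8.15% (7.06 to 9.36). They were less often intergenic, with 45.3% (43.3 to 47.3) for beige and brown and 44.9% (42.8 to 47.0) for beige and white, and less often over 100 kb from a start site (19.5%, 17.97 to 21.2, and 22.0%, 20.3 to 23.7). Neither set of intervals overlapped that of the white and brown regions. The regions with a peak in exactly 1 beige library were less often intergenic (46.2%, 43.99 to 48.5), but 27.3% (25.3 to 29.4) lay over 100 kb away and their median distance was 41250 bp, so a long distance was not particular to regions without a beige peak. These classes share libraries and no test between cultures was made, since 2 libraries against 2 allow no two-sided exact permutation p below 0.333. All intervals cover counting error only.

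**Figure D2:**
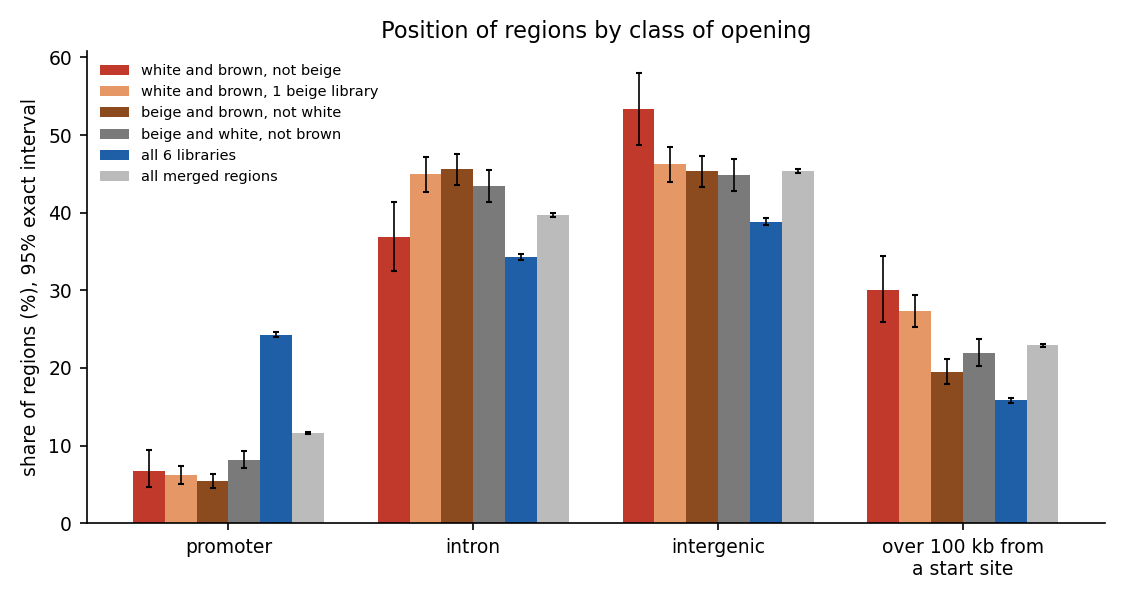
Share of regions (%) by position for 6 classes of regions, with 95% exact intervals as error bars; regions with exactly 1 beige peak are the second bar. The white and brown regions without beige have the highest intergenic share (53.4%) of the 6 classes shown, and their promoter share (6.78%) lies between those of the mirror patterns.

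The median width was 341 bp (interval 329 to 351), near the 333 bp of the beige and brown regions and above the 255 bp of all merged regions. Regions open in all 6 libraries, which merge at least 6 intervals, had a median of 588 bp. The 4 summits of a region spread over a median of 68 bp (interval 62 to 74), against 53 bp (51 to 55) in the beige and brown and 43 bp (41 to 45) in the beige and white pattern. Median GC content of the 201 bp around the summit was 50.2%, the same median as in all merged regions.

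AP-1 matches were frequent at these summits. A match stood within 100 bp of the summit in 172 of 472 regions (36.4%, interval 32.1 to 41.0), against 21.2% of all merged regions. The share was 24.5% (22.8 to 26.3) in the beige and brown pattern and 17.9% (16.4 to 19.6) in the beige and white pattern, and neither interval overlapped. In the regions with exactly 1 beige peak it was 36.0% (33.8 to 38.2), close to that of the regions with none. Among regions open in all 6 libraries it was 26.6%, but many of these are promoters. Outside promoters the shares were 37.96% (33.40 to 42.7) in the white and brown regions and 33.35% (32.9 to 33.8) in those open in all 6 libraries. The latter share lay just under the lower bound of the white and brown regions, and the intervals overlapped. Among regions 250 to 450 bp wide, AP-1 was matched in 36.8% (31.4 to 42.5), against 26.9% of all merged regions. In that width range the regions open in all 6 libraries had 31.9% (31.1 to 32.6), and the intervals overlapped. The beige and brown pattern had 25.8% there and the beige and white pattern 19.9%, both under the lower bound of the white and brown regions.

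CTCF matches were not found at all. The CTCF consensus was present in 0 of 472 windows. A floor of 3 counts allows a share of up to 0.636% and the Clopper-Pearson interval up to 0.779%, against 2.97% of all merged regions. It was present in 5.13% (4.96 to 5.31) of regions open in all 6 libraries, in 2.17% (1.63 to 2.83) of the beige and brown and in 4.79% (3.94 to 5.75) of the beige and white pattern. In the regions with 1 beige peak the share was 0.472%. Among regions 250 to 450 bp wide, CTCF was matched in 0 of 304 (interval up to 1.21%), against 4.07% of all merged regions and 8.80% of those open in all 6 libraries. In that width range the beige and white pattern had 3.35% (2.40 to 4.56), and the 1.68% (1.11 to 2.44) of the beige and brown pattern overlapped the interval of the white and brown regions.

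**Figure D3:**
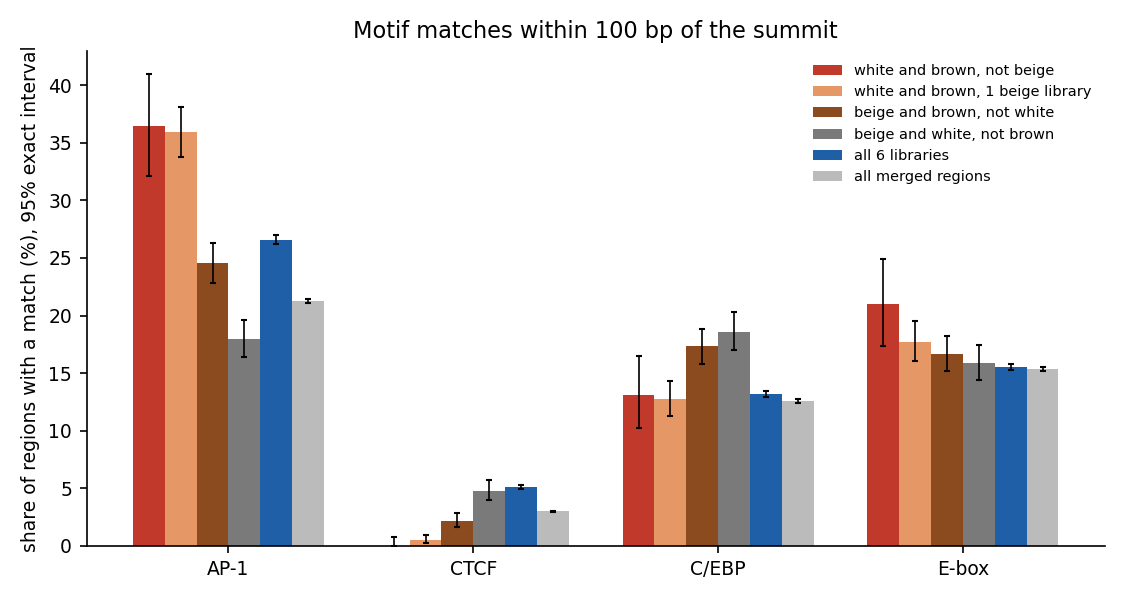
Share of regions (%) with a match to AP-1, CTCF, C/EBP or an E-box within 100 bp of the summit, for 6 classes, with 95% exact intervals as error bars. The AP-1 bars of the white and brown regions with no beige peak (36.4%) and with 1 (36.0%) stand above those of the other 4 classes, and the CTCF bar of the former is at 0.

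C/EBP matches (TTGCNNAA) stood in 62 windows (13.1%, interval 10.2 to 16.5), near the 12.6% of all merged regions. The mirror patterns had more, 17.3% (15.8 to 18.9) and 18.6% (17.02 to 20.3); the first of these intervals overlapped that of the white and brown regions and the second did not. E-boxes stood in 99 windows (20.98%, interval 17.4 to 24.9), against 15.4% of all merged regions. The mirror patterns had 16.7% (15.2 to 18.2) and 15.9% (14.4 to 17.5), with overlapping intervals. Among promoter-linked motifs, the GC box (GGGCGG) was matched in 6.36% (4.33 to 8.95) against 10.7%, and the ETS motif (CCGGAAG), which Ets1 and its relatives bind, in 6 regions (1.27%, 0.468 to 2.75) against 2.35%, which lies inside that interval. TEAD was matched in 5.93% against 4.29%, RUNX in 7.20% against 5.36% and PBX-HOX (TGATTNAT) in 5.51% against 3.68%; the lower bounds of these 3 intervals (3.98, 5.04 and 3.63) lay under the share in all merged regions.

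The remaining motifs were rare in these windows and in the genome-wide set. EBF (TCCCNNGGGA) was matched in 7 windows (1.48%, against 1.40% of all merged regions) and STAT (TTCCNGGAA) in 4 (0.847% against 0.929%). The glucocorticoid receptor motif (GNACANNNTGTNC) and the CRE (TGACGTCA) were matched in 2 each (0.424%, against 0.624% and 0.656%). The nuclear factor I motif (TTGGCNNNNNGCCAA) and the DR1 of PPARG (AGGTCANAGGTCA) were matched in 0 of 472, with the same limits of 0.636% (3 counts) and 0.779% (Clopper-Pearson), while 0.0668% and 0.0566% of all merged regions held them. Looser forms of these motifs were not searched, so a count of 0 speaks only of the exact letters.

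The AP-1 matches were placed like those elsewhere. There were 197 in all, 23 regions held at least 2, and 72.6% lay within 50 bp of the summit, against 73.2% in all merged regions. The median distance was 28 bp against 30 bp. The middle base was C or G in 77.2% of matches, the form that Fos and Jun prefer, against 77.3%. By position, 40.8% (33.4 to 48.5) of the intronic, 36.5% (30.6 to 42.8) of the intergenic and 15.6% (5.28 to 32.8) of the promoter regions held one. The 236 more strongly called regions had 40.3% (33.9 to 46.8) and the 236 weaker ones 32.6% (26.7 to 39.0), with overlapping intervals.

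**Figure D4:**
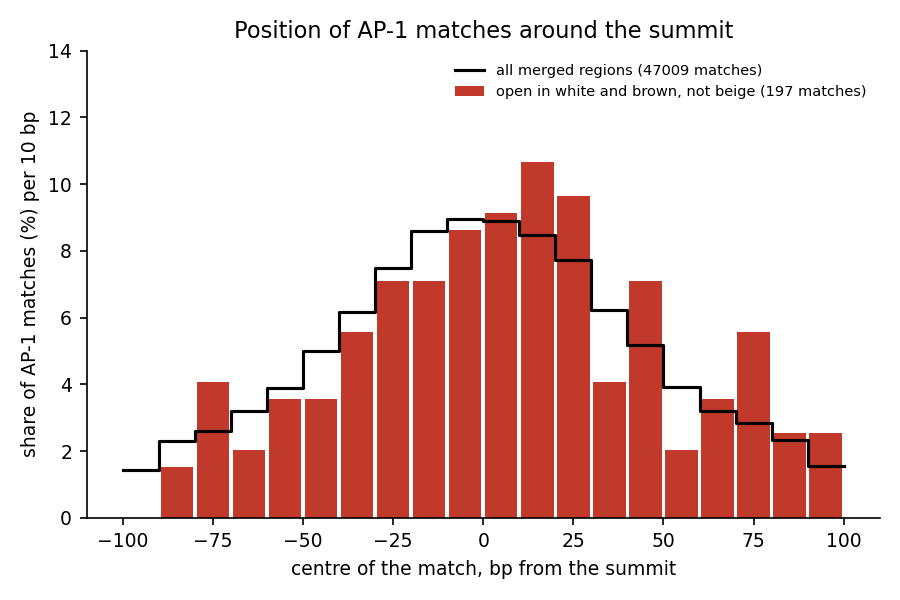
Share of AP-1 matches (%) per 10 bp by the distance of the match's centre from the summit (bp), for the 197 matches of the white and brown regions (bars) and the 47009 of all merged regions (line). Both are highest near the summit, and 72.6% and 73.2% of matches lie within 50 bp.

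The 10 regions called most strongly in all 4 libraries were led by one 53366 bp from the start of Polr3k, a subunit of RNA polymerase III (chr2:181917555-181917815). Its −log10 q was 51.5 and 29.7 in white and 25.1 and 32.7 in brown, the highest smallest value of any member, and the nearest beige peak was 14184 bp away. It held none of the 15 motifs, and none of its 31-base words occurred elsewhere on the assembled chromosomes. The Gm10800 region had 31.9 and 27.3 in white and 20.2 and 17.05 in brown. The Duxf3 promoter region had 27.5, 15.2, 21.4 and 15.4 in the same order. Next came the region far from Rps29, a ribosomal protein gene, with 9.52, 15.5, 17.7 and 10.6. Both cultures overlapped in strength at each of the last 2.

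The others of the 10 had a smallest value of 7.27 to 8.50. They lay nearest to Oxgr1 (the receptor for alpha-ketoglutarate), Catsperb (a part of the calcium channel of sperm), Dctn4 (a dynactin subunit), Gmds (the first enzyme of GDP-fucose synthesis), Tmem125 and Tbc1d9b. The Tbc1d9b region lay in an intron of Rnf130, and the Tmem125 region had 64.3% of its words in more than 1 copy, with a median of 8 copies. So 3 of the 10 strongest regions were multicopy over at least 50% of their window, namely those at Gm10800, Duxf3 and Tmem125. Among all 472 there were 17 such regions (3.60%, interval 2.11 to 5.70), against 1.60% of all merged regions and 0.674% of those open in all 6 libraries. Mirror patterns had 1.39% (0.968 to 1.94) and 0.886% (0.542 to 1.37). Reads from multicopy sequence cannot be placed with certainty, and the methods name uniquely mapped reads only for the signal tracks, not for peak calling. The part of read placement in these peaks was not tested. Without the 17 regions the AP-1 share was 37.6% and the CTCF share still 0 of 455.

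**Figure D5:**
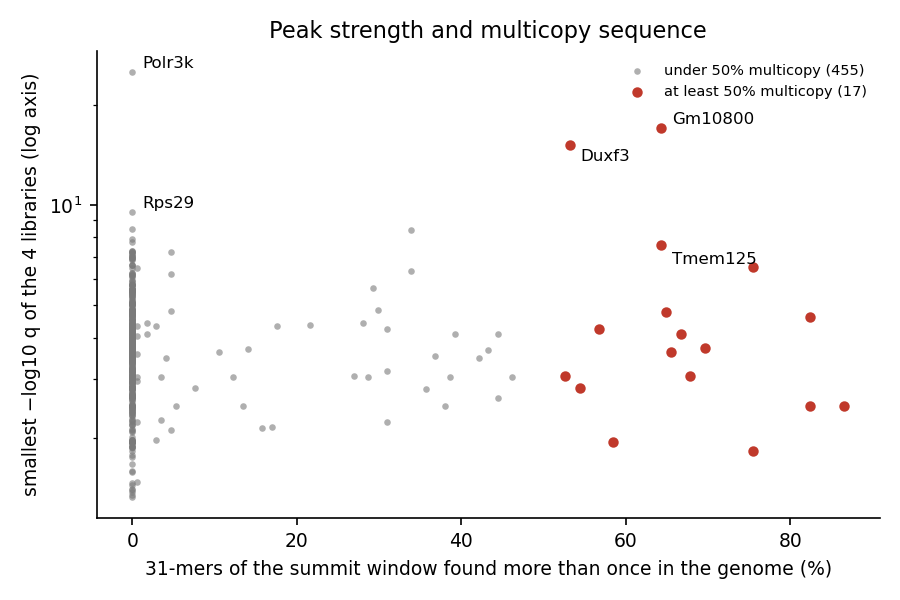
Smallest −log10 q over the 4 white and brown libraries (log axis) of each of the 472 regions against the share (%) of 31-base words of its summit window found more than once on the 19 autosomes, X and Y. The 17 regions at 50% or more are in red and include the regions ranked 2, 3 and 9, at Gm10800, Duxf3 and Tmem125, while the strongest, at Polr3k, is at 0%.

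The 32 promoter regions were led by Duxf3, Slc26a2 (a sulfate transporter), Tmem223 and Scn8a (a sodium channel). The Slc26a2 region had a −log10 q of 10.2 and 7.16 in white and 21.5 and 14.8 in brown, so both brown values were above both white ones. Tmem223 had 7.03 and 15.7 in white and 9.45 and 7.51 in brown, with overlapping values, and its window held an ETS match. Scn8a had 10.6, 7.88, 11.6 and 5.90 in the same order and a GC content of 81.1%. The next were at Lgi2, Adamts4 (a protease that cuts aggrecan), Vmn1r1 (a pheromone receptor), Ssc5d and Marc1 (a mitochondrial reductase), with a smallest value of 4.80 to 5.86. Cdh10 (a cadherin), Ston2, Hoxd4 (a homeobox factor), Tunar, Peg3 (an imprinted zinc finger gene) and Ryr3 (a calcium release channel) followed at 3.83 to 4.78. At Hoxd4 the white values were 5.44 and 4.54 and the brown 8.83 and 8.55, and at Peg3 the white values were 15.6 and 6.07 and the brown 5.70 and 3.85. Many of these promoters had a beige peak close by. The gap was 37 bp at Ryr3, 38 at Hoxd4, 45 at Duxf3, 81 at Scn8a, 166 at Tunar and 210 at Lgi2. At Peg3, Ssc5d, Marc1 and Slc26a2 it was 364, 396, 502 and 515 bp. The gap was longer at Adamts4 (1212 bp), Cdh10 (2244), Ston2 (2825), Tmem223 (3054) and Vmn1r1 (7244). None of the 32 is nearest to a gene of the lists described next.

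Of 219 genes on 12 lists of adipocyte, lineage, matrix and glucocorticoid genes, 15 were the nearest gene of 16 regions. That is 3.39% of the regions, against 2.35% of all merged regions. By group, the adipogenic regulators and lipid storage genes had 5 regions at 4 of 42 genes (1.06% of the regions against 0.391% of all merged regions). The extracellular matrix and TGF-beta genes had 3 at 3 of 27 (0.636% against 0.526%), and the white adipocyte and inguinal depot genes 2 at 2 of 22 (0.424% against 0.231%). The thermogenic and brown, the beige, the smooth muscle, the endothelial and the glucocorticoid target lists had 1 each (0.212%, against 0.0720 to 0.282% of all merged regions), as did the 2 genes that the study followed (Ets1 and Klf4). The adipose progenitor, skeletal muscle and macrophage lists had 0, against 0.254%, 0.112% and 0.0473% of all merged regions. The lists and the regions were chosen with results of these data known, and the counts are too small to set one list apart.

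Cebpa, the C/EBP factor that completes adipocyte differentiation, was the only listed gene with 2 regions. The upstream one, 27502 bp before the start, had a −log10 q of 19.1 and 9.56 in white and 4.70 and 3.81 in brown. The downstream one, 32084 bp past the start, had 4.52 and 12.4 in white and 1.87 and 2.90 in brown. It lay 44 bp from a beige peak, and the upstream one 4723 bp. The region nearest to Ets1, 95501 bp past its start, had 16.2 and 12.2 in white and 5.68 and 2.94 in brown. At all 3 the white values were above the brown ones, though each value is relative to its own library. The summit windows of the upstream Cebpa region and the Ets1 region are shown because they lie near a master regulator and the factor the study followed. They were picked after their values were seen. Capitals mark an AP-1 match in the first and a GC box in the second.
Cebpa, chr7:35091691-35091891: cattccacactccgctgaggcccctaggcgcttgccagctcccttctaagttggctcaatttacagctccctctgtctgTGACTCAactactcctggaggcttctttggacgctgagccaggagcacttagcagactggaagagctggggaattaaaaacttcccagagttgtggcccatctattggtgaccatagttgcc
Ets1, chr9:32791785-32791985: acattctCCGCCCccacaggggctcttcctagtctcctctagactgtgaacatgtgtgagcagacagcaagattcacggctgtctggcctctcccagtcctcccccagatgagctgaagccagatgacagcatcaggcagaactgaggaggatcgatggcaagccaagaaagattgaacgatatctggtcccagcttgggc
The Ets1 window thus held no ETS match to the searched letters.

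Other adipogenic genes had 1 region each. At Acsl1, which activates long-chain fatty acids, a region in an intron of the gene and 2553 bp before the nearest of its start sites had 12.7 and 7.99 in white and 4.97 and 7.13 in brown. At Zfp423, a factor of committed preadipocytes, an intronic region 1483 bp past a start had 15.8 and 14.01 in white and 6.24 and 4.23 in brown and lay 126 bp from a beige peak. At Ebf1, an early adipogenic factor, an intronic region had 4.77 and 4.37 in white and 7.80 and 5.04 in brown. White values were above brown ones at Zfp423 and Acsl1 and below them at Ebf1, so the group had no common order.

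Regions next to genes of depot identity and browning lay far from the starts. The region of Lhx8, a homeobox factor of brown adipocytes, lay 77661 bp away in an intron of Slc44a5, with 6.13 and 5.42 in white and 11.6 and 11.99 in brown. The region of Tbx1, a beige marker, lay 43662 bp away in an intron of Gnb1l, with 2.86 and 4.78 in white and 3.52 and 2.74 in brown. Those of Igfbp3 and Nrip1, a corepressor that restrains oxidative genes, lay 20405 and 248147 bp before the start. Nearness along the chromosome does not show which gene a site acts on.

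The remaining listed genes code for signals, matrix and receptors. Inhba (an activin subunit), Ltbp1 (which binds latent TGF-beta) and Tnc (tenascin C) had regions 148269, 135150 and 528933 bp before their starts, and Cdh5 (the cadherin of endothelial junctions) 130518 bp before its start. The Mylk region lay in an intron of Mylk, the kinase of smooth muscle myosin. The Nr3c1 region lay 96074 bp past the start of the glucocorticoid receptor gene, with 7.29 and 6.06 in white and 6.28 and 7.22 in brown. AP-1 was matched at Nr3c1, Inhba, Tnc, Igfbp3, Nrip1, Lhx8 and the upstream Cebpa region. Such a match stood in 36.4% of all 472 regions, so it was not particular to these genes.

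The regions were scattered over the genome. They had 445 different nearest genes, of which 421 were nearest to 1 region, 21 to 2 and 3 to 3. Within 50 kb of each other there were 12 pairs, and 450 of the 472 regions had no other within that distance. Both groups of 3, at Tcp10c on chromosome 17 and at Gm21860 on chromosome Y, held words found in more than 1 copy. The Tcp10c regions had 42.1 to 75.4% of their words in more than 1 copy and a −log10 q of 3.48 to 20.98 over the 4 libraries. The Gm21860 regions had 29.8 to 44.4% multicopy words, 3.53 to 18.6 in −log10 q, and gaps of 1850 and 2241 bp. They made up 3 of the 46 merged regions of chromosome Y (6.52%), while the other chromosomes had 0.145 to 0.330% of their regions in the class.

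The closest pairs with no multicopy word in either window were 5528 bp apart before the start of Tars and 7426 bp apart past that of Wdr11. The next was 11065 bp apart near Lif, the gene of a cytokine of the interleukin 6 family. The 2 Lif regions lay 24804 and 36164 bp past its start, with 5.11 to 12.8 in white and 5.74 to 14.8 in brown, and the values of the cultures overlapped at the farther one, while both brown values were above both white ones at the nearer one. Gmds was nearest to 3 regions, but these lay over 50 kb apart.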

How the data were processed

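Peak lists of 6 ATAC-seq libraries were analysed, with 2 replicates per culture (beige, white and brown) per the labels. For the beige and white libraries, per the methods, the authors trimmed adaptors with Trimmomatic, aligned reads to mm10 with BWA and called peaks per library with MACS2, keeping those at q under 0.05. The brown libraries are not described there, but their labels name BWA, MACS2 and mm10. Whether duplicates or excluded regions were removed before peak calling is not given in the sources used here. The deposited fold enrichment is a ratio of pileup at the summit over local background, and the −log10 q column, also as deposited, belongs to the summit too. Both are relative to 1 library, and the lists hold no read counts, so the depth behind a peak is unknown. The intervals follow from the number of regions and cover counting error only. They do not measure the spread between the 2 libraries of a culture.

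Intervals were merged in Python 3.11.15 (pandas 2.3.3, numpy 2.4.6, scipy 1.17.1), and the merge was checked against bedtools 2.31.1 on simulated data. Each region's summit is the strongest of its 4 white and brown summits. Positions came from protein-coding transcripts of GENCODE M21 (basic). The 15 consensus motifs were searched on both strands within 100 bp of the summit, and 31-base words were counted over the whole genome (numba 0.67.0). Shares have 95% Clopper-Pearson and medians exact binomial intervals.

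The members, the gene lists and the motifs were chosen with earlier results of these data known. Named were the 10 regions with the highest smallest −log10 q, the 15 strongest promoter regions, groups of 3 or more regions within 50 kb and every region nearest to a listed gene. The pairs, the regions at the calling threshold and the Cebpa and Ets1 windows were added after values were seen. The search for motifs and repeated words was tested on simulated data. The authors' other assays were not used here.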

Additional observations from a re-analysis of the deposited data

How the results depend on the processing

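The alternatives were fixed with earlier results known, except the removal of multicopy windows, of promoter regions and of regions outside 250 to 450 bp, which were added after values were seen. No paired analysis was possible because every value describes called peaks and none was tested across cultures. With q under 0.00001 in all 6 lists the regions numbered 284, their median width was 358.5 bp, their median distance to a start site 48872 bp, their GC content 49.3% and their close pairs 7. With that threshold in the white and brown lists only, 86 regions remained, with 2 close pairs and a GC content of 48.8%. Lists cut to equal length gave 22 close pairs. Merging intervals up to 100 bp apart gave a median width of 356.5 bp, and summit windows in place of intervals gave 270.0 bp and a promoter share of 11.0%. Without regions that had a beige peak within 1000 bp the promoter share was 3.61% and 6 close pairs were left. A promoter distance of 3 kb gave a share of 10.2%, and pairs within 10 and 100 kb numbered 4 and 21. AP-1 was matched in 27.8% of windows reaching 50 bp and 43.4% of windows reaching 250 bp to each side, as window length sets. Leaving out 1 library in turn loosens the rule by construction and raised the number over 1.5 times in each case, to 1094 and 1781 without beige replicates 1 and 2, 775 and 1032 without white replicates 1 and 2, and 855 and 1107 without brown replicates 1 and 2, with 25 to 128 close pairs, median widths of 289 to 342 bp, intergenic shares of 47.7 to 53.3%, GC of 49.3 to 50.2% and AP-1 shares of 29.5 to 37.3%. The lowest AP-1 share was without brown replicate 1. The CTCF share stayed within the main interval under each of its 18 alternatives, and the AP-1 share did under 15 of 18. The AP-1 share also stayed above that of both mirror patterns with q under 0.01 (36.6% against 24.3% and 17.997%), q under 0.00001 (38.4% against 24.8% and 18.2%) and equally long lists (35.96% against 23.2% and 17.96%). These 3 settings cut the beige lists as well, so their regions may hold a weaker called beige peak. The lists limit the depth, since no level in beige can be read where no peak was called.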
